A study of Homo sapiens with 4 samples.

Results

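The matrix metalloproteinases and their tissue inhibitors were examined through 10 genes: MMP1, MMP3, MMP10, MMP13, MMP14, MMP15, MMP24, TIMP1, TIMP2 and TIMP3. They were chosen by name, as every gene probe of the array that carried one of these names. This gave 10 probes in 19 spots, out of 34127 probes and 43118 gene spots, and 10 of 27224 named genes with a value on all arrays. Each gene had 1 probe, and MMP1 had 10 spots of its probe whereas the other 9 members had 1 spot.

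Expression was measured in LNCaP and PC3 cells, a pair of human prostate cancer lines that do and do not depend on androgen, to compare their response to atorvastatin (ATO), a statin that inhibits HMG-CoA reductase. Each line was measured on 1 array without treatment (control) and on 1 array after ATO, which gave 4 groups. ATO was given at 10 µM for 24 h, all cells grew in RPMI medium with serum, and the controls are labelled as having had no treatment, with no vehicle named. No group had a replicate, so no value below has a biological error, and precision is limited by the number of arrays. Each line is a single culture of tumour cells without the stroma that surrounds a tumour, and fewer producing cells cannot be told apart from less RNA per cell.

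Matrix metalloproteinases are zinc proteases that are made as inactive precursors and that cleave collagens, proteoglycans and other proteins outside the cell. Most are secreted, and the membrane types stay anchored at the cell surface, where they also activate other family members. The tissue inhibitors (TIMP) bind the active site of the proteases and block them. In tumours the balance of both is followed because it bears on invasion, and much of the protease is made there by stromal cells.

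Levels are given as processed signal in intensity units, and ratios as log2 of the signal scaled to the 75th percentile of its array. A probe is called well above background where the scanner software said so for more than 50% of its spots. Between 48.5% and 52.9% of gene spots were well above background on an array, no spot was saturated, and the 75th percentile lay between 497 and 588 units before scaling across all 4 arrays. Signals of different probes were not set against each other, since probes differ in efficiency.

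The probes of the 4 members on the long arm of chromosome 11 are shown because these genes are related and could in principle share signal. Their opening 30 bases of 60 were, 5′ to 3′:
MMP1: acatgtgcagtcactggtgtcaccctggat
MMP3: tgactcgagtcacactcaagggaacttgag
MMP10: atgtattatgagccaaaatggttaattttt
MMP13: ctcagagacactgttgataaaaactcaggc
They lay on the minus strand of hg18 at chr11:102165907-102165966 (MMP1), chr11:102211904-102211963 (MMP3), chr11:102146615-102146674 (MMP10) and chr11:102318983-102319042 (MMP13). Among the 45 pairs of member probes, the longest run of bases in common was 9 of 60, between MMP13 and MMP14. The probes were compared with each other and not with the transcripts of the other genes, so shared signal was not tested. Which exons the probes fall in was not analysed here.

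The sequence before the start of the gene was in the RefSeq promoter table for 6 of 10 members, and MMP1, MMP3, MMP13 and TIMP2 had no entry. Capitals mark TGANTCA, called the AP-1 letters here, and TATAAA, both searched on both strands over the 250 bases before the start. TGANTCA is a loose pattern with any base in the middle, which was A in MMP10 and MMP20 and G in MMP7. Binding by AP-1 was not tested. MMP10, which was far higher after ATO in PC3, is shown beside its cluster neighbours MMP7, which was measured in PC3 and did not pass 1.5-fold, and MMP20, which was at background:
MMP10: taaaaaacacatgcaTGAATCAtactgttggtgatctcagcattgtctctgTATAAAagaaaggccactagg
MMP7: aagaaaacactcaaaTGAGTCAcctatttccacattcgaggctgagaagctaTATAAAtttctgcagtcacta
MMP20: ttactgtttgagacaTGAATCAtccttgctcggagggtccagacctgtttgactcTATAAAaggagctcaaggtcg
They are on the minus strand of GRCh38.p14, at chr11:102780639-102780710, chr11:102530757-102530829 and chr11:102625384-102625459. In all 3 the AP-1 letters came first and TATAAA followed, after 29 bases in MMP10, 30 in MMP7 and 33 in MMP20. The AP-1 letters began at position -67 from the start in MMP10 and in MMP7, and at -112 in MMP20. Of 35116 promoters, 6.57% held TGANTCA and 10.7% held TATAAA in a window of the same length. The upstream window of MMP8 held TATAAA alone, and that of MMP27 held neither.

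MMP14 and TIMP1, measured in PC3 only, had neither motif. Their last 120 bases before the start are shown with capitals at GGGCGG or its reverse complement, the GC box:
MMP14: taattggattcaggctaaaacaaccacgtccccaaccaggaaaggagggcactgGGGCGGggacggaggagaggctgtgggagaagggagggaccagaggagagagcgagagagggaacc
TIMP1: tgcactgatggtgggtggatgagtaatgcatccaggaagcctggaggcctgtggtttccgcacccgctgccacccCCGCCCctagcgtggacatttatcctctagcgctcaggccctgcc
They are on the plus strand of GRCh38.p14, at chr14:22836465-22836584 and chrX:47582316-47582435. Over 250 bases, MMP14 held 1 GC box, TIMP1 held 2, MMP24 held 3, and MMP15 and TIMP3 held 5 each, and 42.6% of all promoters held at least 1. These matches are a description of letters and were not tested against the ratios.

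Of the 10 members, 7 were well above background on at least 1 array. MMP15, MMP24 and TIMP2 were so on all 4 arrays, MMP1, MMP14 and TIMP1 on both PC3 arrays only, and MMP10 on the PC3 ATO array only. MMP3, MMP13 and TIMP3 were not well above background on any array. In LNCaP, then, 3 of 10 members could be measured, and in PC3 7 of 10.

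**Figure D1:**
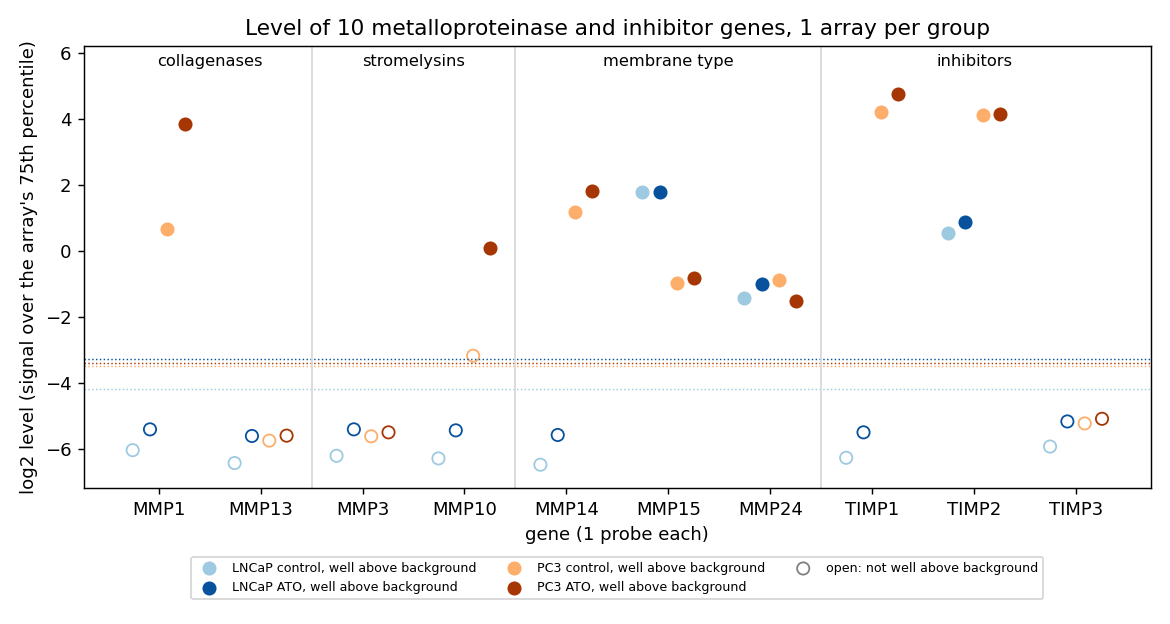
Log2 level of each member on the 4 arrays, as signal relative to that array's 75th percentile. Circles are open for values not well above background, and dotted lines lie at the lowest value that was well above background on each array. MMP1 and MMP10 stand far higher on the PC3 ATO array than on the PC3 control array, and 7 of the 10 members lie under the dotted lines on both LNCaP arrays.

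After ATO, 3 of the 7 members with a value in PC3 were at least 1.5-fold higher (MMP1, MMP10 and MMP14), 1 was at least 1.5-fold lower (MMP24), and TIMP1, TIMP2 and MMP15 were neither. Over all 13815 genes with a value, 8.20% were higher and 10.3% lower by the same measure. The split of all genes moved with the scaling, from 1133 higher and 1419 lower to 2154 and 910 with the 50th percentile, and to 762 and 1927 with the spike-in probes. The median log2 ratio was 0.55 over the 7 members and -0.01 over all genes. MMP10 entered this count only through the array on which it was high, so the count is a description. In LNCaP, 0 of the 3 members with a value passed 1.5-fold in either direction, where 2.77% of 13739 genes were higher and 1.99% lower. Those 380 and 273 genes became 641 and 175 with the spike-in probes and 164 and 190 with normexp. With the spike-in probes MMP24 passed in LNCaP at a log2 ratio of 0.59.

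**Figure D2:**
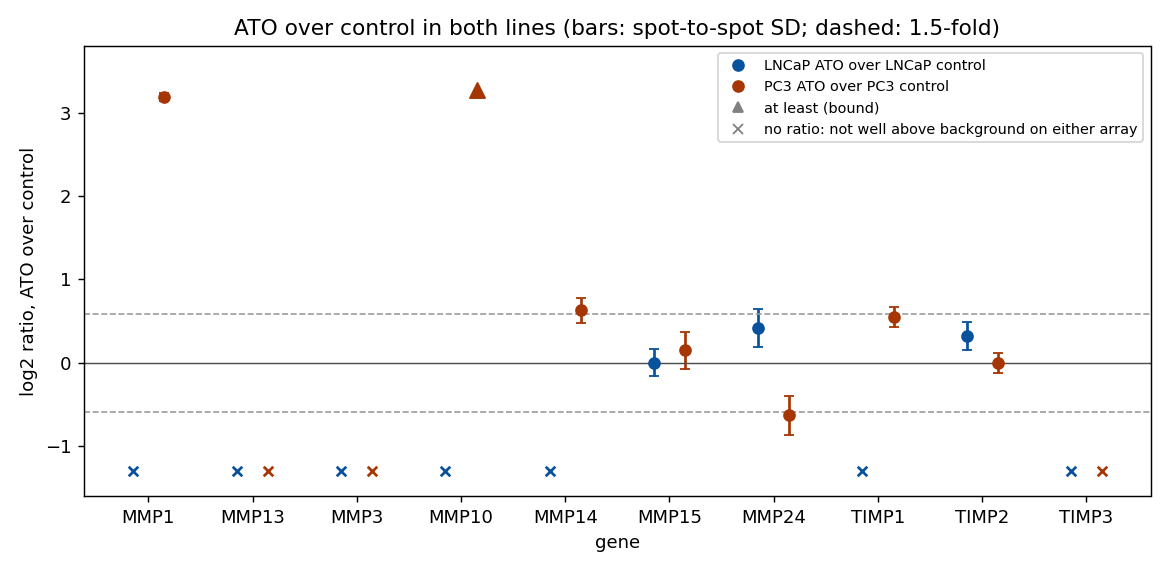
Log2 ratio of ATO over control for each member in LNCaP and PC3. Bars are the SD expected from repeated spots of like brightness on the same arrays. The triangle is MMP10, where only the ATO array was well above background, and its value is not a firm lower limit. Crosses mark members not well above background on either array, which have no ratio. The 2 highest points, MMP1 and MMP10, are both from PC3.

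The collagenases cleave the triple helix of fibrillar collagens. MMP1, interstitial collagenase, gave 7.53 units without and 12.5 units with ATO in LNCaP, against 934 and 8214 units in PC3. Neither LNCaP value was well above background, and both PC3 values were. MMP1 was 9.09-fold higher after ATO in PC3, a log2 ratio of 3.19. It was the third highest of 12513 genes measured on both PC3 arrays.

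The 10 spots of the MMP1 probe show how firm the value is on these 2 arrays. In PC3 control they ran from 865 to 1016 units with a median of 936, and in PC3 ATO from 7546 to 9296 with a median of 8303. The spots of both arrays did not overlap. Taken spot by spot, the log2 ratio was 3.19 ± 0.13 (SD over 10 spots of 1 pair of arrays) and ran from 3.03 to 3.46. It was 3.11 in the 5 spots of the upper rows, 3.26 in the 5 of the lower rows, and 3.22 in the 7 spots outside bright local backgrounds. Such spots share 1 RNA sample per array, so this spread is technical.

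**Figure D3:**
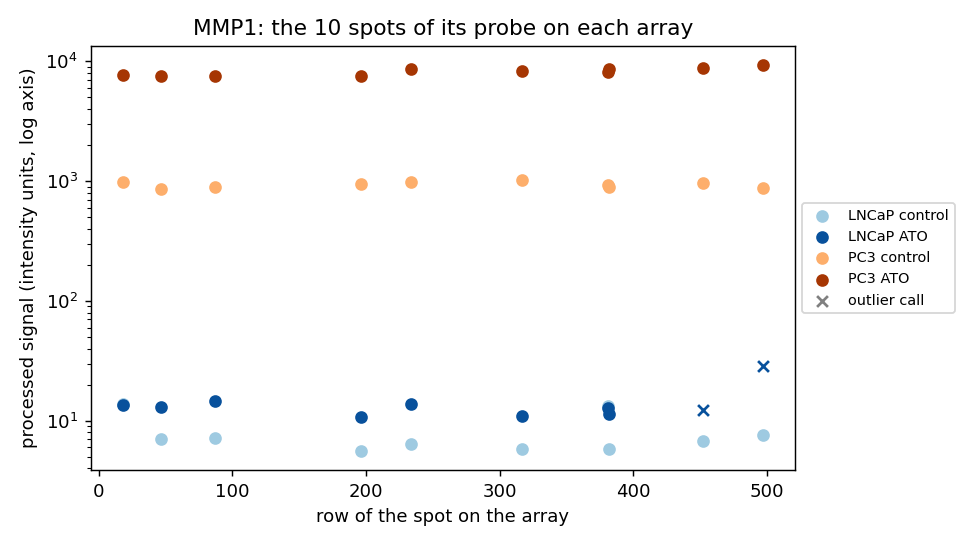
Processed signal of the 10 MMP1 spots on each array against the row of the spot, on a log axis, with crosses for spots that carried an outlier call. The PC3 ATO spots lie between 7546 and 9296 units and the PC3 control spots between 865 and 1016, over all rows of the array.

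MMP13, collagenase 3, read 5.77 units without and 10.9 units with ATO in LNCaP, against 11 and 11.7 units in PC3. None of these was well above background, so no ratio is given, and a change under that limit was not detectable.

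The stromelysins have a wider range of substrates and also activate collagenases. MMP10, stromelysin 2, read 6.35 units without and 12.3 units with ATO in LNCaP, against 64.8 and 606 units in PC3, and only the PC3 ATO value was well above background. By these readings MMP10 was 9.68-fold higher after ATO in PC3, a log2 value of 3.27. Its PC3 control reading was not well above background, yet lay above the lowest reading on that array that was, 52.1 units. The value is thus the ratio of both readings and not a firm lower limit. The probe had a single spot, and its local background was 199 units on the PC3 ATO array against 77 on the PC3 control array, where the array medians were 90 and 89. Before any subtraction the spot read 809 and 166 units. With the normexp background correction the log2 value was 2.32. The part of the local background in this ratio was not tested.

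MMP3, stromelysin 1, read 6.71 units without and 12.6 units with ATO in LNCaP, against 12 and 12.6 units in PC3, all at background.

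The membrane-type enzymes are MMP14, MMP15 and MMP24. MMP14, the chief activator of pro-MMP2, gave 5.55 units without and 11.1 units with ATO in LNCaP, against 1322 and 1979 units in PC3. It was at background in LNCaP and 1.55-fold higher after ATO in PC3. The log2 ratio was 0.63, with an SD of 0.15 expected from repeated spots of like brightness. This lies within that SD of the 1.5-fold threshold, and with the spike-in scaling it was 0.52 and no longer passed.

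MMP15 gave 1717 units without and 1846 units with ATO in LNCaP, against 298 and 319 units in PC3. The LNCaP values were the higher ones, and ATO and control differed by less than the spot-to-spot SD in each line. The log2 ratio was 0.00 with an SD of 0.16 in LNCaP and 0.15 with an SD of 0.22 in PC3.

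MMP24, a membrane type known mainly from the nervous system, gave 185 units without and 266 units with ATO in LNCaP, against 315 and 197 units in PC3. It was 1.34-fold higher after ATO in LNCaP (log2 0.42) and 1.55-fold lower in PC3 (log2 -0.63), each with an SD of 0.23 from repeated spots. The PC3 call was lost with the 50th percentile and with normexp. Over all settings tried, the PC3 log2 ratio lay between -0.74 and -0.43. The local background of its single spot was 140.0 units on the PC3 control array and 137 on the LNCaP ATO array, the 2 arrays on which MMP24 was higher, against 92 on PC3 ATO and 102 on LNCaP control. Its part in these ratios was not tested.

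Among the inhibitors, TIMP1, a broad inhibitor of secreted metalloproteinases, gave 6.42 units without and 11.8 units with ATO in LNCaP, against 10734 and 15175 units in PC3. It was at background in LNCaP. In PC3 it was 1.46-fold higher after ATO, a log2 ratio of 0.55 with an SD of 0.12 from repeated spots, just short of the threshold, and passed it only with the 50th percentile (0.74). MMP14 and TIMP1 thus lay just inside and just outside 1.5-fold.

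TIMP2, which blocks the proteases and also serves MMP14 in the activation of pro-MMP2, gave 721 units without and 966 units with ATO in LNCaP, against 10243 and 9935 units in PC3. The log2 ratio was 0.00 in PC3 with an SD of 0.12, and 0.32 in LNCaP with an SD of 0.17. TIMP3, which is held in the matrix, read between 8.17 and 16.7 units and was at background on all 4 arrays.

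**Figure D4:**
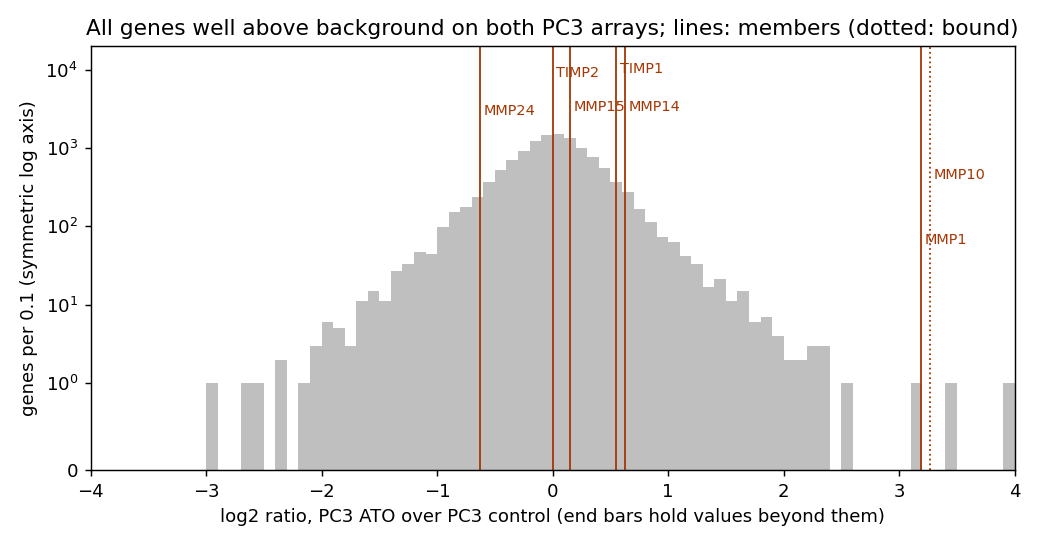
Number of genes by log2 ratio of PC3 ATO over PC3 control for the 12513 genes that both arrays measured above background, with a symmetric log axis and lines at the members that had a value. MMP1 at 3.19 and MMP10 at 3.27 lie in the far upper tail, although the PC3 control reading of MMP10 was not well above background. The other 5 members lie between -0.63 and 0.63.

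The untreated lines were then compared at 2-fold. Of 6 members with a value, 4 were higher in PC3 control than in LNCaP control and 1 was lower. Over 15237 genes with a value, 20.6% were higher in PC3 and 19.0% higher in LNCaP. That split moved from 3139 higher and 2897 lower in PC3 to 2257 and 4737 with the 50th percentile and to 4631 and 1508 with the spike-in probes. TIMP1 was at least 331-fold higher in PC3, MMP14 at least 40.8-fold and MMP1 at least 28.8-fold, each against the lowest LNCaP value that was well above background. As log2 values these were 8.37, 5.35 and 4.85, and with normexp they were 6.93, 3.98 and 3.38. TIMP2 was 12.0-fold higher in PC3, with a log2 ratio of 3.59 and an SD of 0.14. MMP15 was 6.83-fold lower in PC3 (log2 -2.77, SD 0.20). MMP24 was 1.44-fold higher in PC3 (log2 0.53, SD 0.22), under the threshold. It was 0.09 with the 50th percentile and 1.04 with the spike-in probes, where it passed and 5 members were higher in PC3.

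The differences of TIMP2, MMP15 and MMP24 were larger than the SD of repeated spots in the main setting, and that of MMP24 was not with the 50th percentile. The bounds of TIMP1, MMP14 and MMP1 have no such SD. All these differences include the difference between cultures, which was not measured. These markers of both lines stood on the side their labels call for: KLK3 and TMPRSS2 were higher in LNCaP, and CAV1, CD44 and VIM were higher in PC3. Of 7 fibroblast markers, 6 were at background on all arrays (COL1A2, COL3A1, PDGFRB, LUM, DCN and THY1), and COL1A1 gave 76.1 to 121 units. Of 4 macrophage markers, CD14, CSF1R and CD163 were at background on all arrays, and 1 of 5 PTPRC probes gave 215 units on the LNCaP control array alone. The other PTPRC probes read 6.32 to 9.22 units there, at background.

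Of the other 18 metalloproteinases and inhibitors, 9 were at background on every array, the gelatinase MMP2 among them. In PC3, 6 had a value, of which 1 was higher after ATO and 0 lower, beside 8.20% and 10.3% of all genes. The median log2 ratio was 0.17 against -0.01 over all genes. The gene that passed was MMP28, epilysin, with 357 units in PC3 control and 761 in PC3 ATO, 2.20-fold higher, and with 146 and 149.6 units in LNCaP. Its probe had a spot in a bright local background on at least 1 PC3 array, and the part of this in the ratio was not tested. Of the rest, MMP7 (matrilysin) had a log2 ratio of -0.18, the gelatinase MMP9 0.08, MMP17 0.04, MMP23B 0.25 and TIMP4 0.32. In LNCaP, 6 had a value and 0 passed 1.5-fold.

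Between the untreated lines, 6 of 9 such genes were higher in PC3 and 1 was lower, beside 20.6% and 19.0% of all genes. The 6 became 4 with the 50th percentile, quantile normalization or normexp, where MMP28 and MMP9 no longer passed, and 5 in the deposited table, where MMP9 did not. MMP23B was 17.1-fold higher in PC3, MMP17 6.50-fold, MMP7 at least 6.14-fold, TIMP4 at least 3.51-fold and MMP28 2.07-fold. MMP11, stromelysin 3, was at least 4.63-fold higher in LNCaP.

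The related ADAM and ADAMTS proteases shed cell surface proteins or cleave proteoglycans. Of 28 genes, 18 were at background throughout. In PC3, 1 of 10 with a value was higher after ATO and 2 were lower, beside 8.20% and 10.3% of all genes. ADAMTS13 was at least 1.63-fold higher, and ADAMTS3 at least 3.16-fold and ADAMTS6 at least 2.00-fold lower. With normexp ADAMTS13 and ADAMTS3 no longer passed. ADAM10 and ADAM17, the main sheddases, had log2 ratios of -0.18 and 0.15, and ADAM15 had 0.20. In LNCaP 0 of 7 passed, and ADAM17 did with the spike-in probes.

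**Figure D5:**
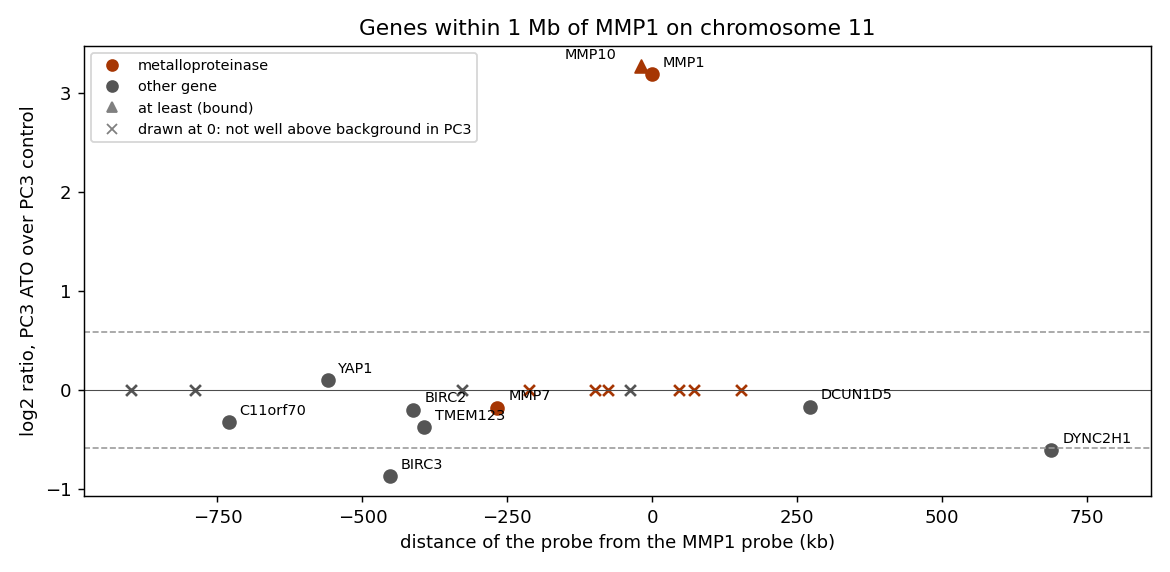
Log2 ratio of PC3 ATO over PC3 control for the 20 genes with a probe within 1000 kb of the MMP1 probe on chromosome 11, by distance from it. Only MMP1 and MMP10, with probes 19.3 kb apart, lie above the upper dashed line (1.5-fold), and crosses at 0 are genes not well above background in PC3.

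The genes around MMP1 were listed by position, in a window centred on MMP1 after its value was seen. Of 20 genes with a probe within 1000 kb in hg18, 9 were metalloproteinases and 10 had a value in PC3. MMP1 and MMP10 were the 2 genes at least 1.5-fold higher, and BIRC3 (log2 -0.87) and DYNC2H1 (-0.61) were the 2 at least 1.5-fold lower. Over all genes 8.20% were higher and 10.3% lower. The count is a description, since it includes MMP1 itself and MMP10, which had a value only through the array on which it was high. Of the 9 metalloproteinases, MMP7 was the only other with a value, and MMP3, MMP8, MMP12, MMP13, MMP20 and MMP27 were at background in PC3. The nearest measured genes outside the family, DCUN1D5 and TMEM123, had ratios of -0.17 and -0.38.

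AP-1 (FOS and JUN proteins) and ETS factors are known regulators of several metalloproteinase genes, so their own RNA levels were read. Of 17 genes, 14 had a value in PC3, of which 5 were higher and 2 lower after ATO, beside 8.20% and 10.3% of all genes, with a median log2 ratio of 0.19. JUND was 3.09-fold higher (250.3 to 749 units), JUN 2.77-fold (349.7 to 938), ELF3 2.51-fold (2461 to 5980.3), ATF3 1.73-fold (1033 to 1729.8) and ETV1 1.57-fold (323 to 493). The 3 other ATF3 probes had log2 ratios of 0.22, 0.65 and 1.48, and the 3 other ETV1 probes -0.28, 0.61 and 0.78. FOSL1 was 1.52-fold lower (8057 to 5129.6) and ETS2 1.51-fold lower (210.2 to 135), and both calls were lost with the 50th percentile and with normexp, the ETS2 call also with quantile normalization. The ETV1 call was lost with the spike-in probes. FOS and FOSB were at background on all arrays. JUNB (log2 0.37), ETS1 (-0.17), ETV4 (0.34) and ETV5 (0.03) did not pass.

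In LNCaP, 0 of 7 such genes with a value passed 1.5-fold, with ATF3 at 0.49, JUN at 0.43 and JUND at 0.34. With the spike-in probes ATF3 and JUN passed. In the untreated lines, FOSL1 was at least 249-fold, ETV4 at least 51.5-fold, ETS1 at least 50.6-fold, ETV5 at least 15.7-fold and ETS2 at least 6.49-fold higher in PC3. ETV1 was 4.47-fold and JUND 3.38-fold higher in LNCaP.

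Proteins that activate, bind or clear the proteases were a list of 12 genes. In PC3, 1 of 9 with a value was higher after ATO and 4 were lower, beside 8.20% and 10.3% of all genes, with a median log2 ratio of -0.16. The plasminogen activators, whose product plasmin activates several precursors, were lower: PLAU 2.01-fold (39664 to 19116 units) and PLAT 1.73-fold (6198 to 3457). CLDN1, a claudin, was 1.79-fold lower. LRP1, a clearance receptor, was 1.91-fold higher (158 to 291), although its other probe had a log2 bound of -0.15. FURIN, which cleaves the precursors of membrane-type enzymes, had a log2 ratio of -0.09, and BSG, an inducer of metalloproteinases, 0.12. In LNCaP 0 of 3 passed.

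Of 28 matrix genes, substrates of these enzymes, 19 had a value in PC3. After ATO 1 was higher and 2 were lower, beside 8.20% and 10.3% of all genes. COL2A1 was 3.17-fold higher after ATO (109 to 334 units), and the basement membrane collagens COL4A2 (1.96-fold) and COL4A1 (1.65-fold) were lower. COL4A1 lost its call with the 50th percentile. The other 16 passed in neither direction, and the median log2 ratio was -0.01. In LNCaP, COL5A2 was the 1 of 13 that passed (log2 0.69, from 78.3 to 136 units), beside 2.77% higher and 1.99% lower over all genes. It did not pass with normexp, and LAMA3 passed too with the spike-in probes. In the untreated lines, 15 of 20 were higher in PC3, LAMB3 at least 414-fold among them, and 3 were lower, LAMC1 by 4.64-fold. Over all genes 20.6% were higher in PC3 and 19.0% lower.

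The genes most like each member that passed 1.5-fold in PC3 were found by the distance between log2 values centred over the 4 arrays, among 15563 genes. Values under the lowest one well above background on their array were first raised to it. MMP1, MMP10 and MMP14 were thus held at that limit on both LNCaP arrays. For MMP1 the nearest genes were SDCBP2 (1.19), CYP1B1 (1.38) and KCNN4 (1.48), none of them close: SDCBP2 gave 1154 units in PC3 control and 3483 in PC3 ATO. For MMP10 they were ANXA10 (0.53), AKR1C1 (0.65) and NDRG1 (0.97). ANXA10 went from 87 to 485 units in PC3. NDRG1 gave 2792 units without and 3025 units with ATO in LNCaP, where MMP10 was at background, and 7212 and 32645 units in PC3. The distance takes no account of level, since values were centred. MMP14 lay close to ITPRIPL2 (0.03), ANPEP (0.11) and RBP4 (0.15), which were at background in LNCaP too. These distances therefore came from the PC3 values alone. MMP24 lay close to WWP1 (0.09), a transcript with no gene symbol (0.09) and WNT10A (0.12). Likeness over 4 arrays is a description only.

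The treatment was tested over both lines with limma, with cell line as a block and 1 residual degree of freedom. Of 11902 genes tested, 0 (0%) were called at an adjusted p under 0.05, and 532 had an unadjusted p under 0.05. Only MMP15, MMP24 and TIMP2 could enter. The log2 difference was 0.08 ± 0.13 (SE) for MMP15 with an adjusted p of 0.876 in limma, -0.10 ± 0.31 for MMP24 with 0.93, and 0.16 ± 0.15 for TIMP2 with 0.784. MMP1, MMP10, MMP14 and TIMP1 did not enter, since they were not well above background in LNCaP. Without the filter, which takes their LNCaP background values as levels, limma gave log2 differences of 1.91 ± 0.71 (SE) for MMP1, 2.06 ± 0.68 for MMP10, 0.77 ± 0.26 for MMP14 and 0.66 ± 0.26 for TIMP1, each with an adjusted p of 0.646.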

How the data were processed

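RNA of LNCaP and PC3 cells, untreated or exposed to 10 µM ATO for 24 h, was hybridised to 1-colour Agilent arrays, 1 per group, grouped by the labels. The authors read the spot intensity with Agilent Feature Extraction 9.5.3.1. Per the file headers, background was subtracted from the intensity and a surrogate entered where it was not above background. The deposited table holds this intensity as a ratio to an array's 75th percentile, and its floor is 0.03. Of table values above 1, from 99.2% to 99.9% per array were within 2% of the ratio computed here. The gene analysis software of the study was not rerun.

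Outlier spots were left out, the remaining spots of each probe were averaged as log2 intensity, and the 75th percentile over probes was subtracted. A gene was represented by its brightest probe. A probe well above background on 1 of 2 arrays was given a bound, against the higher of its own dim value and the lowest value well above background on that array. Where the dim value was the higher, as for MMP10 in PC3, the bound equals the plain ratio. Thresholds were 1.5-fold within a line and 2-fold between lines. No p-value exists within a line, which had 1 array per group. Only limma 3.58.1 (R 4.3.3, two-sided, Benjamini-Hochberg) over both lines gave one, for genes well above background on both controls or both ATO arrays. It was tested on simulated data, as were the fold calls. The spot-to-spot SD came from probes with 10 spots within 2-fold of the brightness of the member, on the same array.

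All members were named by rule, as were list genes past the threshold (at most 5 per list and direction) and the 3 genes most like a member. Single genes that passed no threshold, and the genes around MMP1, were chosen after values were seen. Some list genes are counted but not reported here by name. The members and lists were chosen with earlier results of these data known. Names are those of the array, and all 10 members matched a current RefSeq symbol. Alternatives were 50th percentile, spike-in, quantile and normexp scaling, the deposited table, outlier spots kept, the median over probes, no filter on dim probes, spots in bright local backgrounds left out, and stricter folds.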

Additional observations from a re-analysis of the deposited data

Results flagged for a closer look

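MMP24 had log2 ratios of opposite sign in the 2 lines, -0.63 in PC3 and 0.42 in LNCaP. The LNCaP ratio did not pass 1.5-fold, and the PC3 ratio did not with the 50th percentile (-0.43) or normexp (-0.53). Each line had 1 array per group, and the difference was not tested. The repeated spots of like brightness gave an SD of 0.23 for either ratio.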

How the results depend on the processing

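Scaling to the 50th percentile shifted the median log2 ratio in PC3 by 0.19 and that between lines by -0.44, and scaling to the spike-in probes by -0.11 and 0.51, with 0.17 in LNCaP. No member ratio past its threshold changed sign under any alternative. In PC3, the number of members past 1.5-fold was 4, and it was 2 at 2-fold (MMP1 and MMP10) and 1 (MMP14) when genes with a spot in a bright local background were left out, which removed MMP1, MMP10, MMP24 and TIMP1 from the comparison. MMP1 then rested on 7 spots outside such backgrounds, an alternative chosen after seeing the data, with a log2 ratio of 3.22. In LNCaP the number was 0, and it was 1 with the spike-in probes (MMP24) and 7 without a filter on dim probes, all 7 at background on both arrays. Of the other metalloproteinases and inhibitors, 1 passed in PC3, and 2 without the filter (MMP25 and MMP28). When genes with a spot in a bright local background were left out, MMP28 was removed and 0 of the remaining 3 passed. The share of all genes past the stricter fold, without the filter or without bright local backgrounds is not reported here. These counts are therefore descriptions. Over all settings, the MMP1 log2 ratio in PC3 lay between 3.03 and 3.38 and the MMP10 value between 2.32 and 3.53. Of all values recomputed for single members, 108 moved by less than the spot-to-spot SD and 33 by more, where bounds, which have no SD of their own, were judged by the median SD of that comparison. Part of the 108 could not move. Each member had 1 probe, so the median over probes repeats the main value. Leaving out bright local backgrounds only drops genes, and lifting the filter leaves measured ratios as they were. The tally is therefore not a measure of robustness. limma called 0 members with the 50th percentile, spike-in, quantile and normexp values, without the filter and with an intensity trend, and was not run under the other alternatives. Over all genes it called 0, against 5 with the 50th percentile and 115 with the spike-in probes. With the spike-in probes the SE was 0.35 for each of MMP15, MMP24 and TIMP2, against 0.13, 0.31 and 0.15 in the main setting. The spread was then the same for all of them, with 1 residual degree of freedom, so the 115 calls are not read as a result. In PC3, 788 genes were higher and 916 lower with normexp. Beyond pairing by cell line, no paired analysis was possible, since each group had 1 array. The limma fit with cell line as a block gave 1 ATO difference averaged over both lines. A difference in response between the lines counted there as error. Signal over background limits the rest: a member at background on both arrays of a line has no ratio.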
